A study of Homo sapiens with 4 samples.

Results

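Of the 382958 autosomal summits in the control Star-PAP HITS-CLIP list, 494 had a summit of the siStar-PAP list within 100 bp and a summit of the siRBM10 list within 100 bp. These 494 positions are called shared sites, since a peak was called there in the control cells and in both depletions. The members were therefore chosen by their positions in all 3 lists, and their presence in each list is a description and not a finding. They made up 0.129% of the autosomal control summits. HITS-CLIP crosslinks protein to RNA with UV light, pulls the protein down and sequences the RNA fragments bound to it. All samples were HEK293, a human embryonic kidney cell line, crosslinked at 400 mJ per cm2.

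Star-PAP was pulled down from cells whose label names only the Star-PAP pulldown (control), from cells given siRNA against Star-PAP (siStar-PAP) and from cells given siRNA against RBM10 (siRBM10). An IgG pulldown was the reference for peak calling and has no list of its own here. The labels describe siRNA transfection with Oligofectamine and harvest at 48 h, whereas the methods of the study name calcium phosphate. Each condition was 1 library, so conditions differ without any replicate to check them, and no p-values are given. The lists held 411400 control, 325797 siStar-PAP and 294402 siRBM10 summits, each 1 bp long with a score, the −log10 of its MACS2 p-value. Strand, peak width, number of tags and depth are unknown from the lists. A score depends on the depth of its library and of the IgG library and is not an amount that can be compared between lists. Neither the knockdowns nor the cell type can be checked from summit positions. TUT1, the gene of Star-PAP, held 5 control, 8 siStar-PAP and 3 siRBM10 summits, RBM10 held 7, 17 and 9. TUT1 held 0 shared sites, and RBM10, on chromosome X, was outside the autosomes searched.

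Star-PAP is a non-canonical nuclear poly(A) polymerase that adds poly(A) tails to selected mRNAs at the 3′ end of their last exon. RBM10 is an RNA-binding protein known from splicing that associates with Star-PAP. In a pulldown experiment, a position that is tagged in every condition can hold an RNA that the protein binds strongly, an RNA that is abundant, or a sequence that is often sequenced or mapped whatever is pulled down. The peak lists do not separate these.

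Shared sites with the highest scores and the mRNA sites described below had the following sequences in hg19, each 29 bases long with the control summit in the middle. They are written on the strand of the gene, or on the plus strand between genes, and are shown because they differ in kind: a homopolymer, tandem repeats, coding sequence and structural RNA. Capitals mark the repeat unit in the chromosome 4, chromosome 10 and PDE9A lines and the base at the control summit in the others.
LINC00486 intron (chr2:33141589-33141617, plus strand): ggggggggggggggGgggggggggggggg
between genes (chr4:49111560-49111588, plus strand): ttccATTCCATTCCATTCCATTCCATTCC
between genes (chr10:42360730-42360758, plus strand): tcCATTCCATTCCATTCCATTCgggttga
PDE9A intron (chr21:44082985-44083013, plus strand): aCACACAgCACACACAaaaaCACAcCACA
FOXK2 intron (chr17:80544260-80544288, plus strand): gggaggtgaaaggtGggcgggggggaaag
AL161626.1 exon (chr9:79186765-79186793, plus strand): ctcctgggaaacggGgtgcggccggaaag
RN7SL3 exon (chr14:50320539-50320567, minus strand): gagttcaggagttcTgggctgtagtgcgc
H3-5 CDS (chr12:31945001-31945029, minus strand): agctgccaggaaaaGcaccccctctacct
LUC7L3 CDS (chr17:48823190-48823218, plus strand): gagaaaggaaaagaCgaagggaagaggaa
DSP CDS (chr6:7581170-7581198, plus strand): accgcgtcagaagaCtcctgcaagaggaa
TAF3 CDS (chr10:8007627-8007655, plus strand): gaaggagaaggaaaGagagaaagagaaga

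How many control summits would be shared by position alone was asked first. A siStar-PAP summit lay within 100 bp of 11184 control summits (2.92%) and a siRBM10 summit within 100 bp of 8065 (2.11%). Of the control summits with a siStar-PAP summit, 4.42% also had a siRBM10 summit, and of those with a siRBM10 summit 6.13% also had a siStar-PAP summit. Bases within 100 bp of both a siStar-PAP and a siRBM10 summit, called covered bases, made up 0.0993% of the determined autosomal bases. Control summits spread evenly over the determined bases of their chromosomes would have given 355 shared sites, which is the mean that shuffled positions approach. The 494 observed were 1.39 times that number (95% Poisson interval 1.27 to 1.52). Intervals here and below cover counting error only. The number given by even spread was thus most of the number observed.

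Closeness of the summits changed this ratio. Within 50 bp there were 180 shared sites, 1.64 times the number given by the covered bases, within 250 bp 2124 (1.141 times) and within 500 bp 6054 (0.958 times, below the number given). At 23 sites all 3 summits lay on the same base, where even spread gives 0.161. Of these 23 sites, 12 lay in introns, 11 between genes and 0 in mRNA exons, 14 carried the commonest score of all 3 lists, and for 9 the 24 bases around the summit occurred at 10 or more places of the genome. Partners of shared sites spread over the whole range allowed, with 45 siStar-PAP and 48 siRBM10 partners at distance 0 and 94 and 106 partners at 76 to 100 bp. The plot of distances between summits shows a narrow peak of close pairs on each line. From control to siRBM10 this peak was the bin from 0 alone. In each pair of lists the bin from 0, which alone holds pairs on the same base, was above the bin from −50 bp. From control to siRBM10 there were 137 pairs per 1000 summits and kb in the bin from 0, against 89.2. The bins from −100 and 50 bp of that line held 98.4 and 94.5, both above the bin from −50 bp. The values were 223 and 139 from control to siStar-PAP, and 318 and 239 from siStar-PAP to siRBM10. How far same-base pairs account for this lean was not tested. From siStar-PAP to siRBM10 there were further rises, to 178 in the bin from −650 bp and 180 in the bin from 600 bp. Nearer the centre this line also reached 178 in the bin from −400 bp and 175 in the bin from 350 bp. From control to siStar-PAP there were rises to 111 in the bin from −200 bp and 107 in the bin from 350 bp.

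**Figure D1:**
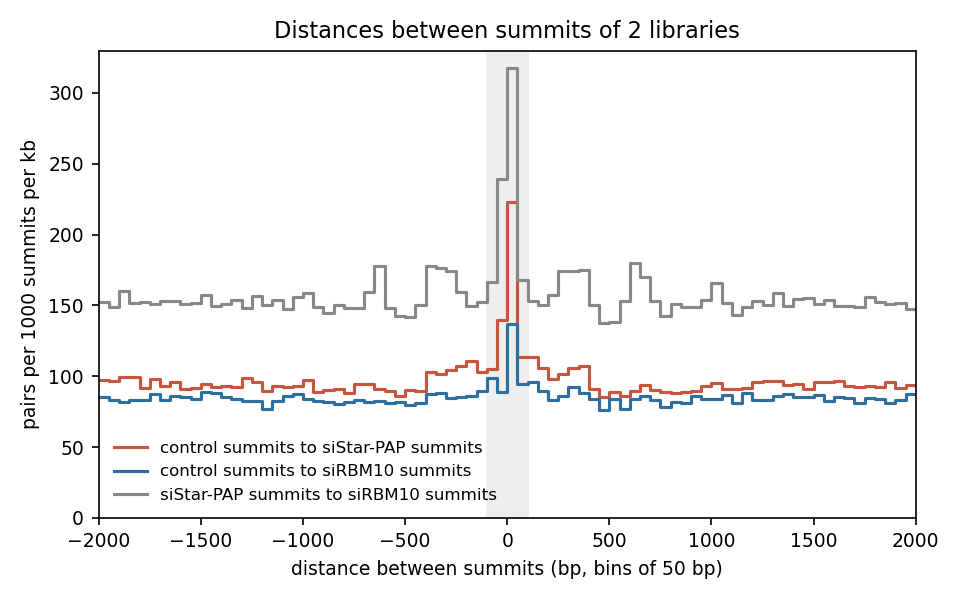
Pairs of summits from 2 lists per 1000 summits and kb, by signed distance in bins of 50 bp, for 3 pairs of lists; the grey band marks 100 bp on each side. The bin from 0 to 49 bp held 223 control to siStar-PAP pairs and 137 control to siRBM10 pairs per 1000 summits and kb, above the level of each line at larger distances.

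The limit of 100 bp divided a continuous range of distances. The farther partner lay at 91 to 100 bp in 56 shared sites and at 101 to 110 bp in 84 control summits that were left out. Just inside, a site in the CDS of FRMPD2 had its siStar-PAP summit at 100 bp and its siRBM10 summit on the same base, with scores of 2.85 in control, 1.73 in siStar-PAP and 1.85 in siRBM10. Just outside, an intronic control summit on chromosome 1 at 150575298 had its partners at 35 and 101 bp and scores of 4.44, 2.30 and 2.77.

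By chromosome, shared sites outnumbered the covered share everywhere except on chromosomes 5, 9, 11 and 20. Chromosome 4 had 17 sites where 7.92 were given (2.15 times) and chromosome 2 had 52 where 28.0 were given (1.86 times). Chromosome 1 held the most sites, 58, and chromosome 19 the most per length, 60.9 per 100 Mb, against 6.28 on chromosome 13. Chromosome 19 had 24.1 sites given by its covered bases and 34 observed (1.41 times), close to the ratio over all autosomes. When evenness was required only within windows of 1 Mb, the ratio over all autosomes was 1.63.

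**Figure D2:**
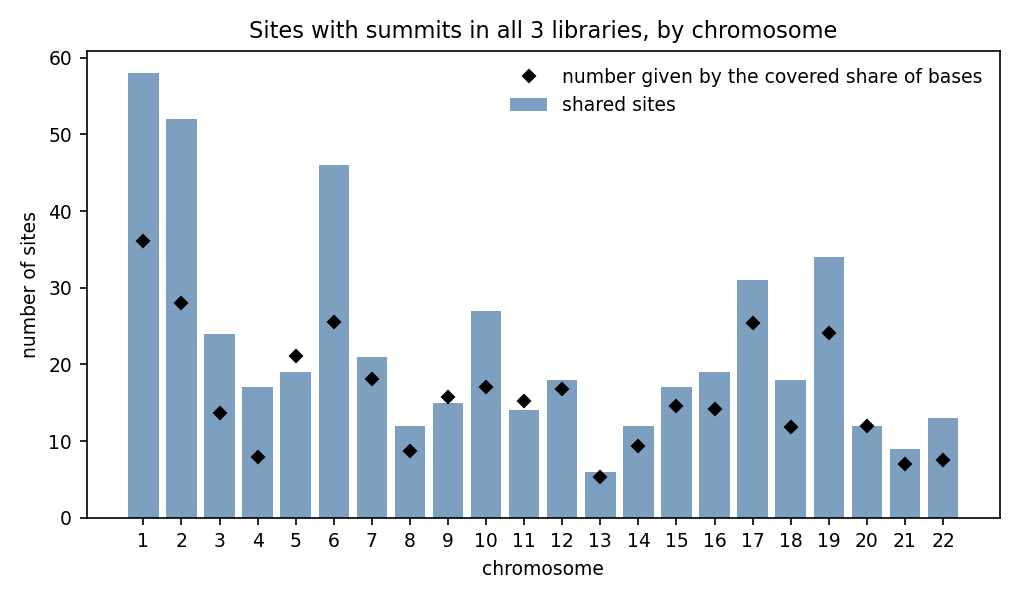
Number of shared sites on each autosome (bars) beside the number given by its control summits and its share of covered bases (diamonds). The bars stand above the diamonds except on chromosomes 5, 9, 11 and 20, and chromosome 1 holds 58 sites against 36.0 given.

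The scores of shared sites were low in most cases, though their medians were above those of all summits. Over all autosomal summits the medians were 1.33 in control, 2.64 in siStar-PAP and 2.83 in siRBM10. In the control list their median was 2.45 (quartiles 1.33 and 3.43), in the siStar-PAP list 2.92 (2.49 and 2.92) and in the siRBM10 list 3.10 (2.64 and 3.25). The commonest score of each list, 1.33, 2.92 and 3.25, was carried in all 3 lists by 76 sites. In the control list 25.3% of shared sites carried it, against 63.1% of all autosomal summits. In the siStar-PAP list these shares were 27.3% and 22.1%, and in the siRBM10 list 29.8% and 22.2%. In 279 sites the score was at least 2 in every list (p at or under 0.01), 2.89 times the number given by the covered bases at that threshold. A score of at least 3 in every list was reached by 30 sites, of at least 4 by 11 and of at least 10 by 1. The share of control summits that were shared sites was 0.0528% (0.0444 to 0.0627) for control scores from 1.3 to 1.5, 0.609% (0.446 to 0.831) from 4 to 5 and 4.72% (2.88 to 7.64) from 10 to 20. Control summits of high score were thus shared more often, and 2 of the 76 with a score of 20 or more were shared.

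The highest shared site lay in an intron of LINC00486, a long non-coding RNA gene, at 33141603 of chromosome 2. It scored 10.3 in control, 12.0002 in siStar-PAP and 17.98 in siRBM10, the only site at 10 or above in all lists. The summit lay in a run of 70 G, 90 bases from undetermined sequence. The next site, between genes at 49111574 of chromosome 4, scored 14.5, 9.35 and 9.48 in the same order, and consisted of ATTCC units, the unit of pericentromeric satellite DNA. In FOXK2, a forkhead transcription factor gene, an intronic site at 80544274 of chromosome 17 scored 6.89, 5.87 and 8.54. In PDE9A, a cGMP phosphodiesterase gene, an intronic site in CA repeats scored 19.7, 8.44 and 4.60. A site in an intron of CSE1L, a nuclear export factor gene, scored 4.53, 4.70 and 5.20. Of the 11 sites with at least 4 in every list, 5 were tandem repeats by the measure below. Among them 4 lay within 2 Mb of a large gap and 1 in an mRNA exon. The 24 central bases of 4 of them occurred at 10 or more places. Of the other 483 sites, 10.6% were tandem, 3.52% near a gap, 9.52% in mRNA exons and 25.5% repeated in this way. The LINC00486 site has no tandem value, since its 200 bases reach undetermined sequence, and was not counted as tandem.

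Annotation classes were then compared, using GENCODE release 44 placed on hg19. Introns held 296 shared sites (59.9%, 95% Wilson interval 55.5 to 64.1), intergenic sequence 136 (27.5%, 23.8 to 31.6) and mRNA exons 47 (9.51%, 7.23 to 12.4). The mRNA exon sites comprised 32 in the CDS, 13 in the 3′-UTR and 2 in the 5′-UTR. Pseudogenes held 8 sites and exons of non-coding RNAs 7. Of all autosomal control summits, 2.11% lay in mRNA exons, 0.977% in the CDS and 38.0% between genes. The share of shared sites in the CDS, 6.48% (4.63 to 9.002), was above that of control summits.

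Of the covered bases, 13.0% lay in mRNA exons, above the interval of the shared sites, 7.96% in the CDS, inside it, and 24.1% between genes, also inside it. Control summits in mRNA exons would have given 35.2 shared sites by the covered share of those exons, and 47 were observed (1.33 times, 0.981 to 1.77). Intergenic sequence gave 94.4 and held 136 (1.44 times, 1.21 to 1.70), and introns gave 228 and held 296 (1.299 times, 1.16 to 1.46). The share of shared sites in the CDS was above that of control summits and not above that of covered bases. Within 1 kb of a transcript start lay 57 sites (11.5%, 9.01 to 14.7), against 5.34% of control summits and 17.6% of covered bases. Control summits shared with siStar-PAP alone had 3.91% in mRNA exons and those shared with siRBM10 alone 3.96%. Among mRNA exon sites 68.1% (53.8 to 79.6) lay in the CDS, against 46.2% of control summits in mRNA exons and 61.1% of covered bases there. Introns within 100 bp of an mRNA exon held 17 sites, and 248 of the 296 intronic sites lay over 500 bp from one. Outside mRNA exons but within 100 bp of one lay 3.44% of shared sites (2.16 to 5.44). This compares with 1.02% of control summits and 5.02% of covered bases. Within 500 bp these shares were 10.1%, 4.50% and 12.9%.

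**Figure D3:**
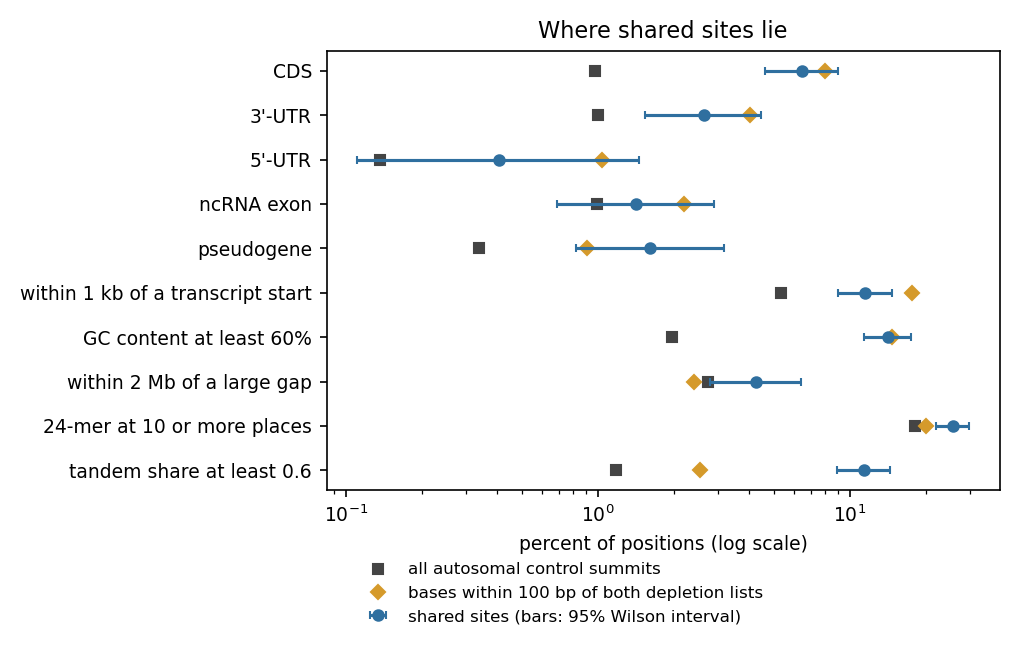
Percent of positions (log axis) with each property for shared sites (circles, bars 95% Wilson intervals), all autosomal control summits (squares) and covered bases (diamonds). For the CDS and GC content the circles sit beside the diamonds, whereas the tandem share of the shared sites, 11.4%, lies above both the control summits (1.18%) and the covered bases (2.54%).

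GC content in 200 bases around shared sites averaged 50.6% ± 8.80 (SD, n = 492 sites with determined bases), against 40.6% ± 9.07 for all autosomal control summits. Covered bases averaged 51.2% ± 8.51. Of control summits under 30% GC, 0.00806% were shared sites, and of those at 65% or more 1.08% were. With the covered share taken within bins of GC content, the number given was 367 and the ratio 1.35. The bins were taken over all autosomes together, where without bins 380 were given and the ratio was 1.299. Sites at 60% GC or more numbered 70, where 34.8 were given (2.01 times, 1.57 to 2.54), and sites below 60% numbered 422, where 328 were given (1.29 times, 1.17 to 1.41). CpG dinucleotides occurred at 0.362 of the number set by C and G content, against 0.213 at control summits and 0.308 at covered bases.

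**Figure D4:**
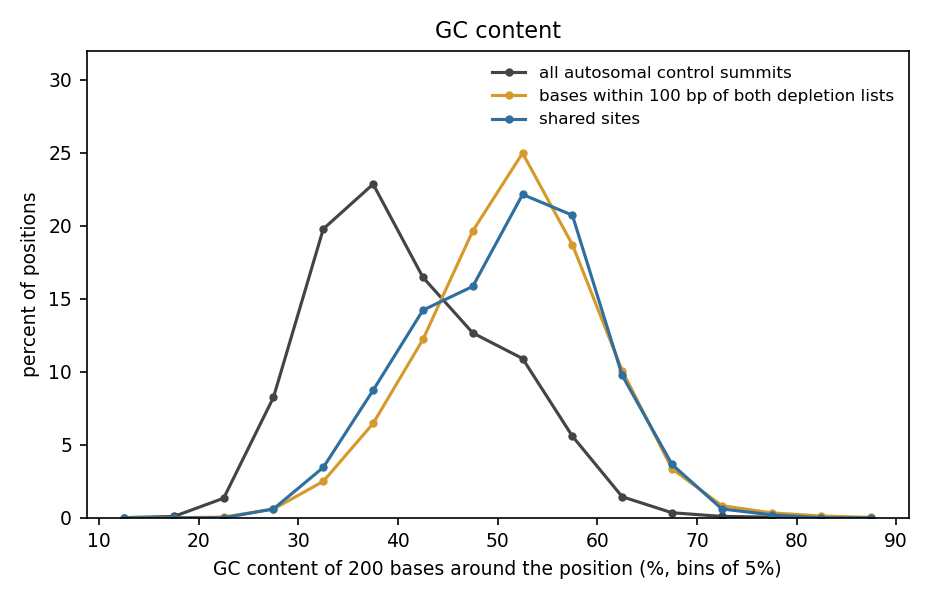
Percent of positions in bins of 5% GC content, over 200 bases, for shared sites, all autosomal control summits and covered bases. Shared sites and covered bases both peak from 50 to 55%, and control summits peak from 35 to 40%.

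Tandem repeats were more frequent among shared sites than among covered bases. A site was called a tandem repeat when at least 0.6 of the 200 bases around it equalled the base a fixed period further, for any period from 1 to 60 nt. This held for 56 of 492 shared sites, 11.4% (8.87 to 14.5), against 1.18% of control summits, 2.54% of covered bases and 0.585% of bases taken at every 10000 along the genome. Control summits shared with siStar-PAP alone had 3.62% and those shared with siRBM10 alone 3.21%. Tandem sequence would have given 19.4 sites, so that 56 were 2.88 times the number (2.18 to 3.74), while the 436 other sites were 1.18 times theirs (1.07 to 1.2995). Both ratios are over all autosomes together, where all sites gave 1.299.

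Of the 56 tandem sites, 35 lay in introns, 20 between genes and 1 in an mRNA exon. The period with the highest share, called the best period, was 10 nt or more at 39 of them. A multiple of a short unit can be the best period, so this does not count long units. The site at 42360744 of chromosome 10 had a best period of 30 nt, with a share of 0.805 at 5 nt. An intron of RPTOR, the gene of the mTOR partner raptor, had a best period of 54 nt. Its scores were 13.8 in control, 2.55 in siStar-PAP and 2.19 in siRBM10. MUC4, a mucin gene known for its coding repeats, had an intronic site with a best period of 42 nt and scores of 4.81, 2.22 and 2.57. Tandem sites scored higher in the control list than other shared sites, with medians of 4.78 and 2.28, and 35 of the 90 shared sites with a control score of at least 4 were tandem. In the siStar-PAP list their medians were 2.76 and 2.92, and in the siRBM10 list 2.65 and 3.25. The control score was the highest of the 3 at 37 of the 56 tandem sites. This count ranks scores across lists, which are not comparable as amounts, and the count over all shared sites is not given.

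Repeated sequence was measured as the number of places, on both strands of the whole reference, where the 24 bases around a summit recur exactly. At 127 of 493 shared sites, 25.8% (22.1 to 29.8), they recurred at 10 or more places, against 18.2% of control summits and 20.1% of covered bases. The number given was 109, and 127 were 1.16 times that (0.970 to 1.38). Control summits shared with siStar-PAP alone had 26.7% and those shared with siRBM10 alone 24.9%, so a share near 25% was not particular to sites in all 3 lists. At 309 sites (62.7%) the 24 bases occurred at 1 place. The methods of the study kept reads with a mapping quality of at least 1 over at least 18 nt, meant to leave reads with a single place in the genome.

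Centromeres were located as the undetermined runs of at least 1 Mb in the reference, which also hold the short arms of acrocentric chromosomes and large heterochromatin blocks. Within 2 Mb of such a gap lay 21 shared sites, 4.25% (2.80 to 6.41), against 2.74% of control summits and 2.40% of covered bases. The number given was 8.80, and 21 were 2.39 times that (1.48 to 3.65). The other 473 sites were 1.37 times their number, so sites near gaps did not set the ratio over all sites. Within 5 Mb the share was 7.29%, against 6.99% of control summits.

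The sites near gaps included 4 between genes on chromosome 10 and 4 between genes on chromosome 4. On chromosome 10 the summit at 42597154 scored 12.5 in control, 4.66 in siStar-PAP and 12.8 in siRBM10, that at 42360744 scored 4.47, 4.27 and 5.54, and that at 42391476 scored 7.59, 2.34 and 3.38. On chromosome 4 the summit at 49149358 scored 10.8, 2.78 and 3.66 and that at 49096611 scored 5.05, 2.42 and 4.44. A summit on chromosome 16 at 46420326 lay 34525 bp from the gap and scored 7.60, 6.97 and 4.22. Sites whose 200 bases repeated with a period of 5 nt, as satellite pentamers do, were 4 of 492 (0.813%, 0.317 to 2.07), against 0.0541% of control summits. One site on chromosome 10, at 39154977, lay past the last determined base at the edge of a gap.

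In mRNA exons, 48 protein-coding genes held a shared site. A control summit in an exon was found in 5760 protein-coding genes, 30.5% of those with annotated exons on autosomes, and 0.833% of these held a shared site there. A summit of each of the 3 lists in exons, at any distance, was found in 2514 genes (13.3%), of which 45 (1.79%) held a shared site. In most genes with exon summits in all 3 lists, no control summit in an exon thus had partners of both other lists within 100 bp. How far apart the exon summits of these genes lay was not measured. The median scores of mRNA exon sites were 2.87 in control, 2.90 in siStar-PAP and 2.77 in siRBM10, and the highest control score among them was 4.93.

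Genes of RNA processing and translation control were among them. LUC7L3, a protein associated with the U1 splicing particle, had a CDS site at 48823204 of chromosome 17 that scored 3.43 in control, 34.3 in siStar-PAP and 28.1 in siRBM10. PPP1R15A, the stress-induced regulator of the eIF2α phosphatase, had a CDS site with 3.35, 11.5 and 7.26. SRSF5, a splicing factor of the SR family, had a 3′-UTR site with 2.06, 3.61 and 2.54.

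Transcription and chromatin genes gave further CDS sites. H3-5, a histone H3 gene without introns that derives from an H3.3 gene copy, had the highest lowest score of the mRNA sites, with 4.02 in control, 4.28 in siStar-PAP and 4.93 in siRBM10. TAF3, a subunit of the general transcription factor TFIID, scored 2.96, 6.05 and 8.24 in the purine-rich stretch shown above. RUNX1, a transcription factor of blood development, scored 2.21, 12.7 and 12.2. The 24 bases around the H3-5 summit occurred at 1 place of the genome.

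Proteasome and ubiquitin genes with a site included PSMB3, PSMD12, PSMB2 and USP8, and whether such genes were frequent was not tested. The CDS site of PSMB3, a core subunit, scored 2.91 in control, 4.28 in siStar-PAP and 3.04 in siRBM10. The 3′-UTR site of PSMD12, a regulatory subunit, scored 4.53, 4.70 and 3.25, with its 24 central bases at 38 places, and that of PSMB2 scored 1.65, 4.87 and 4.48, with 29 places. USP8, a deubiquitinating enzyme, had a CDS site with 3.43, 6.05 and 2.77.

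Genes of cell structure and signalling had further sites. EPB41L2, a membrane skeleton protein, had a CDS site with 4.02 in control, 3.54 in siStar-PAP and 4.27 in siRBM10. DSP, the desmosome protein desmoplakin, scored 3.36, 6.60 and 5.20 in its CDS. TNFRSF10B, a receptor of the death ligand TRAIL, scored 3.43, 2.49 and 2.77, and RASA4, a Ras GTPase-activating protein, scored 3.36, 2.64 and 3.25, with its 24 central bases at 3 places. TIGAR, a phosphatase of sugar metabolism, had a 3′-UTR site with 3.36, 4.70 and 5.20. The remaining genes in the plot of scores by mRNA scored between 2.19 and 9.64 in every list. The control score was the highest of the 3 at 16 of the 47 mRNA exon sites. As for the tandem sites, this count ranks scores across lists and does not compare amounts, and the count over all shared sites is not given. It therefore does not set mRNA exon sites apart from tandem sites.

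**Figure D5:**
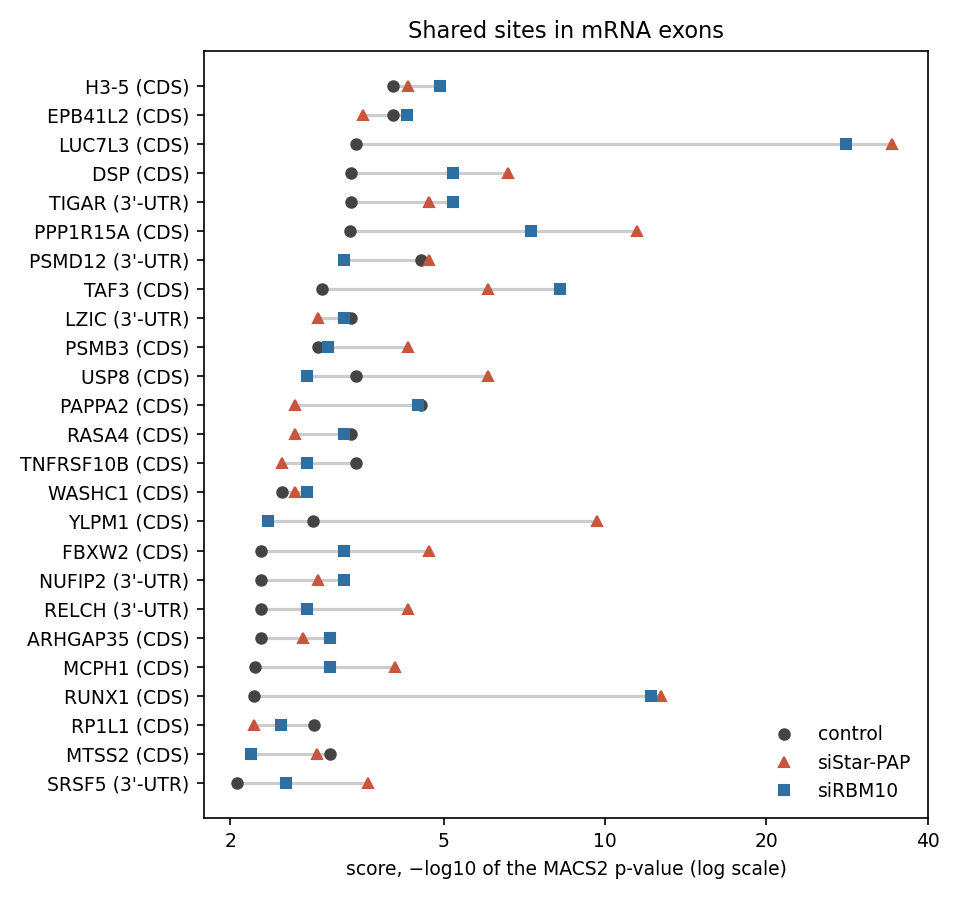
Scores (−log10 of the MACS2 p-value, log axis) of the 25 shared mRNA exon sites with the highest lowest score, in the control, siStar-PAP and siRBM10 lists; scores depend on depth and are not amounts. Control scores lie between 2.06 and 4.53, and LUC7L3, RUNX1 and PPP1R15A have siStar-PAP scores of 11.5 or more.

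Exons of non-coding RNAs held 7 shared sites. AL161626.1, annotated as a miRNA gene, had a site at 79186779 of chromosome 9 that scored 4.31 in control, 8.37 in siStar-PAP and 55.2 in siRBM10, the highest score of a shared site in any list. Only the control summit lay inside the gene, and the siStar-PAP and siRBM10 summits lay 89 and 90 bp from it, outside the gene, which itself held 0 summits of either list. Its surroundings had a GC content of 74.5%. RN7SL3, a gene of the 7SL RNA of the signal recognition particle that has near-identical copies, scored 2.51, 28.2 and 37.6. The other 5 sites lay in 4 lncRNA genes and 1 gene of the annotation's TEC type. Their lowest scores reached 3.25, in ENSG00000291079, with 4.53, 4.42 and 3.25.

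Pseudogenes held 8 sites, 5 of them in processed pseudogenes, which are copies of mRNAs. They were 2.48 times the number given (1.07 to 4.88). ENSG00000218175 scored 7.08 in control, 17.3 in siStar-PAP and 23.8 in siRBM10, and ENSG00000283041 scored 2.28, 13.9 and 21.3. ENSG00000226396 scored 7.42, 3.40 and 4.48, ACTG1P20, a copy of the gamma actin gene, scored 2.65, 2.06 and 3.60, and RPS27AP11 scored 1.33, 2.92 and 3.25. Tags of a processed pseudogene and of its parent mRNA cannot be told apart where their sequences are the same. The 24 bases around the control summit occurred at 1 place for ENSG00000283041, ENSG00000226396 and ACTG1P20. They occurred at 2 places for ENSG00000218175 and at 8 for RPS27AP11.

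Anywhere in the gene, introns included, 306 protein-coding genes held a shared site, 2.25% of the 13607 with a control summit. Their median length was 100983 bp, against 46759 bp for those 13607 genes. Of the 296 intronic sites, 240 lay in protein-coding genes. In 385 genes of any type there was 1 site, and 11 genes held 2: DNAH17, ENSG00000228613, GSE1, PLA2G10CP, RBFOX2, RPTOR, TDRD12, TOR1AIP2, TSNARE1, TTC28 and VPS35L.

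Gene lists chosen with earlier results known were searched for shared sites in exons of any transcript, non-coding ones included. Of 47 genes named in the study in connection with Star-PAP, 26 had a control summit in an exon, 10 had an exon summit in each list and 0 had a shared site in an exon. COL5A1, a fibrillar collagen gene of that list, had a shared site in an intron at 137652606 of chromosome 9, in a CA-rich stretch. Its scores were 13.8 in control, 4.19 in siStar-PAP and 3.09 in siRBM10. Over the whole gene, 1 of the 42 list genes with a control summit held a shared site. The share over all protein-coding genes with a control summit was 2.25%. Of 74 genes of cytosolic ribosomal proteins, 10 had an exon summit in each list and RPS14 a shared site, with 2.49, 3.40 and 4.56. Of 31 genes in a list of translation factors, heat-shock proteins and other abundant mRNAs of dividing cells, 11 had an exon summit in each list and 2 a shared site. Neither of these encodes a translation factor or heat-shock protein: they were NCL, the nucleolar protein nucleolin, with 2.16, 6.35 and 3.13, and GAPDH, a glycolytic enzyme, with 2.65, 15.7 and 10.00. The sites of RPS14, NCL and GAPDH lay in exons of non-coding transcripts and in introns of the coding ones. Of 25 abundant nuclear and structural non-coding RNAs, a list that holds RN7SL1 and RN7SL2 and not RN7SL3, 24 replication-dependent histone genes and 32 genes of cleavage, polyadenylation and tailing factors, 0 had a shared site in an exon. The background of 0.833% counts exons of coding transcripts only, and counts of 0 to 2 genes are too few to set a list apart.

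Most shared sites had no other within 10 kb, and how many an even spread would place together was not computed. Within 1 kb of another lay 0 of them, the smallest distance was 1341 bp, 6 (1.21%, 0.558 to 2.62) had another within 10 kb and 47 within 100 kb, and the median distance between neighbours was 2.80 Mb. In windows of 1 Mb, 372 windows held 1 site, 42 held 2, 8 held 3, 2 held 4 and 1 held 6. The window with 6 lay from 33 to 34 Mb of chromosome 19, where the highest site, in an intron of the centrosomal gene CEP89, scored 2.96 in control, 2.68 in siStar-PAP and 3.02 in siRBM10. The windows with 4 were that from 44 to 45 Mb of chromosome 19, and that from 49 to 50 Mb of chromosome 4 with the ATTCC repeats. Of the windows with 3, the first on chromosome 1, from 179 to 180 Mb, had its highest site in an intron of TOR1AIP2, a nuclear membrane protein gene, with 3.43, 2.92 and 2.77.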

How the data were processed

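Star-PAP HITS-CLIP lists of 1 control, 1 siStar-PAP and 1 siRBM10 library were used, with groups taken from the sample labels. The IgG sample entered only through the peak calling. Per the labels and methods, the authors checked reads with FastQC 0.72, filtered them with the CLIP Tool Kit, trimmed with cutadapt 1.14, collapsed identical reads, mapped to hg19 with BWA 0.7.12, merged tags that began at one base and ran MACS2 on every library against IgG (mFold 5 to 50, fragment size 500, p at most 0.05). The lists deposited by the authors hold summits of 1 bp with the −log10 of the p-value, and no depth or strand, so precision is that of counts of summits.

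Distances, covered bases, classes, 24-mer copies and tandem shares were computed with Python 3.11.15, numpy 2.4.6, pandas 2.3.3, scipy 1.17.1, numba 0.67.0 and pysam 0.24.0 from the hg19 reference and GENCODE release 44. Plots were made with matplotlib 3.10.9. Each summit took 1 class, coding sequence first, then untranslated regions (3′ before 5′), other exons (non-coding RNAs before pseudogenes), introns and intergenic sequence. Makeup of covered bases was read at every 20 of them, and ratios by tandem, repeat, GC and gap property rest on that and on every 10000 bases of the genome. Repeat content was planned from soft-masked bases, which the reference does not mark, and 24-mer copies took their place after the data were seen, as did the ratio within GC bins. Steps were tested on simulated data, and 8 of 8 recovered the known answer.

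Members and gene lists were chosen with earlier results of these data known. Sites named were the 15 with the highest lowest score and the highest of the 5 fullest windows of 1 Mb. Genes named were taken from the 25 mRNA, 10 non-coding and 10 pseudogene genes ranked likewise, the genes with most sites and the genes of the lists with a site. The tandem sites in RPTOR and MUC4, the mRNA PSMB2, and the sites at gaps outside these rules were chosen after their values were seen. Alternatives covered the distance, the score, the class order, sites near gaps and the windows.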

Additional observations from a re-analysis of the deposited data

How the results depend on the processing

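No paired analysis was possible because each condition had 1 library. Of 50 alternatives, 30 left the value within its limits and 20 moved it. The number of shared sites was 180 within 50 bp, 2124 within 250 bp, 6054 within 500 bp, 23 at the same position, 279 with p at most 0.01 in all libraries and 47 in mRNA exons only. The ratio to the number given by the covered bases was 1.63 within windows of 1 Mb, 1.64 at 50 bp, 1.141 at 250 bp, 0.958 at 500 bp and 2.89 with p at most 0.01. At 500 bp the ratio fell below 1. The share near large gaps was 2.23% within 1 Mb and 7.29% within 5 Mb. The share with a 24-mer at 1000 or more places, an alternative added after the data were seen, was 10.95%. Protein-coding genes with a site numbered 306 anywhere in the gene and 27 with p at most 0.01. GC content was 51.7% over 20 bases and 48.8% over 500 bases. The share with another site was 0% within 1 kb, which allows up to 0.772%, and 9.51% within 100 kb. Beyond the construction of each alternative, the cause of these changes was not tested. The threshold of p at most 0.01 lies above the commonest control score and below the commonest siStar-PAP and siRBM10 scores, so it removes other parts of each list. Unknown depth, single libraries and the lack of strand limit every value.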
